A study of Mus musculus with 9 samples.

Results

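The genes described here are 32 genes of the oligodendrocyte lineage and of myelin, of 54532 genes in the deposited count table. They were chosen by name as known genes of these cells, and each of the 32 names matched 1 row. No measured value is part of the rule, but earlier results of these data were known when the list was made. The list was sorted into 6 genes of precursors or of lineage control (Pdgfra, Cspg4, Olig1, Olig2, Sox10, Nkx2-2), 5 genes of newly formed oligodendrocytes (Gpr17, Bcas1, Enpp6, Tcf7l2, Myrf) and 21 genes of myelinating cells. All 32 passed the filter on low counts, with 109 counts (Trf) as the lowest value of any member in any library. RNA came from the whole hypothalamus of wild-type male mice of the outbred ICR stock at postnatal day 21, with 3 libraries in each of 3 groups. LP pups had dams on a low-fat diet (LFD, 10% of energy as fat) and received the vehicle PBS. HP pups had dams fed HFHS, rich in fat and sucrose (45% of energy as fat), and received PBS. HA pups had HFHS dams and received 4-PBA (phenylbutyric acid), a chemical chaperone used against stress of the endoplasmic reticulum. Every pup was injected each day from postnatal day 4 to 16. The dams were put on their diet at 5 weeks of age, 5 weeks before mating, and ate it through gestation and lactation, with litters set to 10 pups. There is no group of LFD pups given 4-PBA, so a comparison of HA with HP speaks only of pups of HFHS dams. The labels do not say whether the pups of a group were littermates, and the spread behind each p-value may therefore be technical or belong to a litter.

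Oligodendrocytes wrap axons in myelin, a stack of membrane rich in cholesterol and galactolipids that lets impulses travel fast. They arise from dividing precursors that carry the PDGF receptor alpha and the NG2 proteoglycan. These precursors leave the cycle, pass through a short stage marked by Gpr17, Bcas1 and Enpp6, and then, under the factor Myrf, switch on the genes of myelin proteins and lipids. In the mouse brain myelination is in full course in the weeks around weaning. In the hypothalamus, newly formed oligodendrocytes and precursors of the median eminence are also known to lie close to neurons that sense nutrients. In RNA from whole tissue, fewer cells of a type and less RNA per cell cannot be told apart, and this holds for every value below.

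Total counts lay between 18226924 and 21823961 per library. The neuron list (10 genes) summed to 5223 to 5999 CPM (counts of a gene scaled to a common library size, with TMM factors), and 17 of 18 hypothalamic marker genes passed the filter, with Kiss1 at 0 counts in every library. Libraries of 1 group differed by more than sampling noise in each of the 9 within-group pairs (chi-square per degree of freedom 4.73 to 25.83), so none was counted as a repeat of another. LP replicate 3 and HA replicate 3 stood apart in the first principal component of all genes tested (34.1% of the variance). Their meningeal fibroblast markers (12 genes) summed to 674.5 and 1263 CPM, against 81.9 to 179.8 in the other 7 libraries, and no marker of that list was at 0. Striatal markers (11 genes) summed to 538.4 CPM in LP replicate 1 and 676.5 in LP replicate 2, against 379.7 to 399.1 in the other 7. The titles of the libraries also carry a code whose meaning is not stated. It is Lg42 for LP replicate 1, Lg63 for LP replicates 2 and 3, Hg43 for replicates 1 and 2 of HP and HA, and Hg13 for their replicate 3, so that code and dam diet cannot be told apart.

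The stretches upstream of 8 members are shown first, because SOX10 and MYRF are known to act on myelin genes and their short motifs can be searched there. They are RefSeq sequence of GRCm38.p6, up to 250 bases before a RefSeq start site, cut where an exon of GENCODE M21 begins. They are written 5′ to 3′ on the strand of the gene. Capitals mark a SOX core (ACAAAG or ACAATG, or CTTTGT or CATTGT on the other strand), the motif of SOX factors such as SOX10, and a MYRF core (CTGGCAC, or GTGCCAG on the other strand). The 8 were picked after the matches were seen.
Mobp (chr9:120149492-120149706, plus strand): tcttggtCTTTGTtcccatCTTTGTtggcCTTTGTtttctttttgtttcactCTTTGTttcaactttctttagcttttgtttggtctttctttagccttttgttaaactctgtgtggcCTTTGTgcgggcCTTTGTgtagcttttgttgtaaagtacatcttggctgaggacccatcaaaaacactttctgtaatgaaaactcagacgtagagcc
Mag (chr7:30914923-30915172, minus strand): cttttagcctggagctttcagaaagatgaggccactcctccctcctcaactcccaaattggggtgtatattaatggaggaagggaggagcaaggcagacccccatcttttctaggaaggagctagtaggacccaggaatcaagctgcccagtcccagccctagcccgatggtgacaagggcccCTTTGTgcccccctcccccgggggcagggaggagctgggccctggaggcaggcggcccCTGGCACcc
Cnp (chr11:100574689-100574903, plus strand): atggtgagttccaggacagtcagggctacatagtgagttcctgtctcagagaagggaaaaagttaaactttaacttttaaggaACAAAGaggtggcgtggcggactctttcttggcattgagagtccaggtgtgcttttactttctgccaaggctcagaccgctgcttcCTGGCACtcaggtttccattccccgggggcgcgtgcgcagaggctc
Opalin (chr19:41077114-41077363, minus strand): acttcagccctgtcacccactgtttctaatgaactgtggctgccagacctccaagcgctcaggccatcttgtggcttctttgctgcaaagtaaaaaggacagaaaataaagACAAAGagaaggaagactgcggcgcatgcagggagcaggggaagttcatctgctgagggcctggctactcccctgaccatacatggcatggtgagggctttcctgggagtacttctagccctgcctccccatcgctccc
Ermn (chr2:58052865-58053114, minus strand): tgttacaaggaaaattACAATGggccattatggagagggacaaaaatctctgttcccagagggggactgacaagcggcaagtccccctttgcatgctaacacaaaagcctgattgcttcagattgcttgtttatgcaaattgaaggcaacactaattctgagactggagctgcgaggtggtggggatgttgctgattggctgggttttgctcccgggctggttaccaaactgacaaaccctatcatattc
Enpp6 (chr8:46986637-46986886, plus strand): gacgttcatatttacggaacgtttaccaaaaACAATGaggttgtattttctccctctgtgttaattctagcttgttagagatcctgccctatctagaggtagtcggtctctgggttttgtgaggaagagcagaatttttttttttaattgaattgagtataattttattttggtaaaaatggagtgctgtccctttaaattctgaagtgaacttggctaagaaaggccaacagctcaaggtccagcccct
Apod (chr16:31314809-31315058, minus strand): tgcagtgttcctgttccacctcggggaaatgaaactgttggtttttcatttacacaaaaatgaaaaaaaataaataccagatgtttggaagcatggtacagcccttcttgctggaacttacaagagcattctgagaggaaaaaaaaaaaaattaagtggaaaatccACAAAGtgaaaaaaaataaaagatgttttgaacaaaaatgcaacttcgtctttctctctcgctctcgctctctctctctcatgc
Pdgfra (chr5:75152001-75152250, plus strand): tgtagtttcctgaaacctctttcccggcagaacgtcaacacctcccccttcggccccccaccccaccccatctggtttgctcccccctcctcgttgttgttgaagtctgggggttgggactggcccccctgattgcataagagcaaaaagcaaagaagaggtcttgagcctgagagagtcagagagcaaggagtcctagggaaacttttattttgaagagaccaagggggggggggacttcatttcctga

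Mobp held 6 SOX cores, all in 1 orientation, in 215 bases. Cnp and Mag held 1 SOX core and 1 MYRF core each, and Opalin, Ermn, Enpp6 and Apod held 1 SOX core each. The stretch of Pdgfra, a precursor gene, held neither, and no 2 capitalised matches overlap. The RefSeq table matched 23 of the 32 members, with 32 windows. Not matched were Olig1, Sox10, Gpr17, Bcas1, Myrf, Mbp, Fa2h, Trf and Cryab. In the full 250 bases, 12 of the 23 genes (52.2%) had a SOX core in at least 1 window, against 28.2% of the 27025 genes of the table. Counted over windows instead, the shares were 50% of 32 and 25.2% of 32851. The 12 were Olig2 among 4 precursor genes, Enpp6 and Tcf7l2 among 2 newly formed genes, and 9 of 17 myelinating genes (Apod, Cnp, Ermn, Gal3st1, Gjb1, Mag, Mobp, Opalin, Tspan2). Those without one were Pdgfra, Cspg4 and Nkx2-2 among the precursor genes and Aspa, Cldn11, Mal, Mog, Nkx6-2, Ppp1r14a, Qdpr and Ugt8a among the myelinating genes. Of genes that varied over the libraries much as Mobp did, Mag, Cnp, Ermn, Gjb1, Opalin and Tspan2 had a core. Mal, Mog, Cldn11, Ugt8a and Aspa, which also varied so, had none, and Apod, which did not, had 1. Likeness to Mobp was judged without a set measure, and not every matched member was sorted. Whether a core goes with that variation was not tested. The MYRF core was in 2 of 23 genes (8.70%, against 4.83% of all). The E-box CAGCTG, which reads alike on both strands, was in 1 of 23 (4.35%, against 14.7%), the GC box GGGCGG in 9 (39.1%, against 35.4%), TATAAA in 4 (17.4%, against 14.3%) and CCAAT in 9 (39.1%, against 37.5%). A match is a string of letters and says nothing of binding. Start sites of 1 gene can overlap, so the windows are not independent.

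Levels are compared between genes on the deposited FPKM values, which divide counts by gene length. Mbp, the basic protein that zips the inner faces of the membrane together, had the highest level of the members, 839.9 ± 176.7 FPKM (SD over all 9 libraries). It was followed by Cnp, a phosphodiesterase of non-compact myelin, with 293.4 ± 44.8 FPKM. Next stood Mobp, another small basic myelin protein, with 263.1 ± 60.6, the tight junction protein Cldn11 with 244.6 ± 45.2, and the raft protein Mal with 188.7 ± 40.8. The ranges over libraries of the neighbours from Cnp to Mal overlapped, so their order is not settled beyond the spread, whereas the lowest Mbp library (566.2) lay above the highest Cnp library (341.3). Olig1, a basic helix-loop-helix factor, was the highest of the non-myelin members with 154.8 ± 14.8 FPKM, and its partner Olig2 had 31.6 ± 3.82. Both lie on chromosome 16 in GRCm38, Olig2 at chr16:91225457-91228677 and Olig1 at chr16:91269772-91271933. The newly formed genes ranged from 73.3 ± 8.45 FPKM for Gpr17, a G-protein-coupled receptor, to 1.73 ± 0.217 for Tcf7l2, a factor of the Wnt pathway and the lowest member. The precursor surface genes were low as well, with 11.6 ± 0.706 FPKM for Pdgfra and 2.73 ± 0.108 for Cspg4, which codes for NG2.

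**Figure D1:**
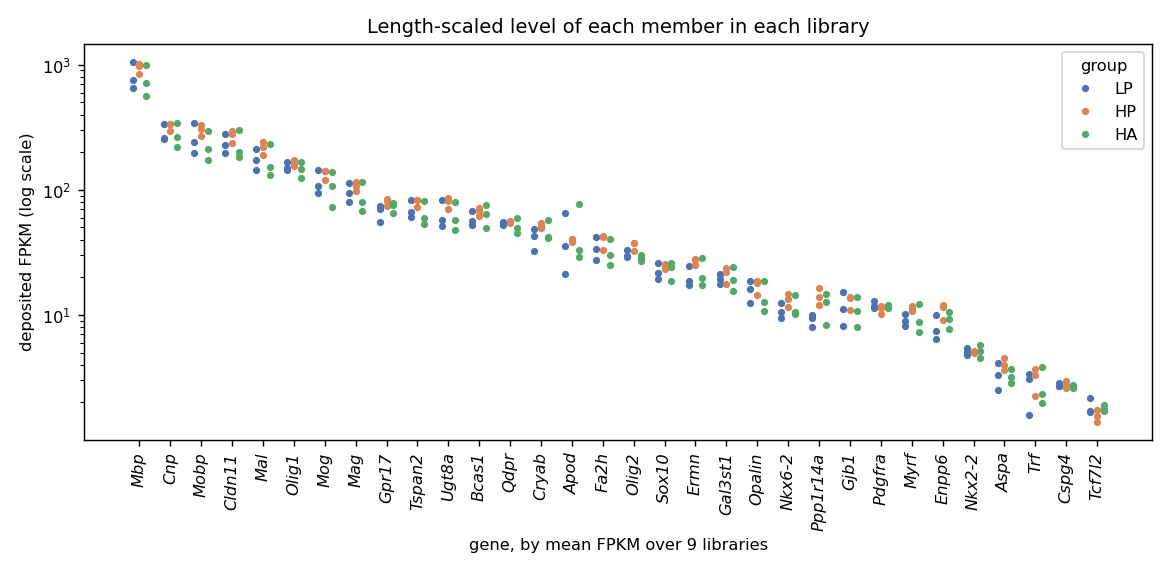
Deposited FPKM (log axis) of the 32 members in each of the 9 libraries, 1 point per library, coloured by group and ordered by the mean. Mbp (839.9 on average) stands above all others, Tcf7l2 (1.73) is lowest, and for most members the 3 groups overlap.

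The myelinating genes differed most from library to library, and much of that difference lay inside the groups. Their summed level was 10060, 15730 and 11600 CPM in LP replicates 1, 2 and 3. It was 14890, 15370 and 12890 CPM in HP, and 15030, 10840 and 8979 CPM in HA. LP replicate 2 and HA replicate 1 thus stood with HP replicates 1 and 2, and LP replicate 1, HA replicate 2 and HA replicate 3 were the 3 lowest. The group means were 12460 ± 2935 for LP, 14380 ± 1313 for HP and 11620 ± 3098 for HA (CPM, SD, n = 3), and the groups overlapped. The 21 myelinating genes took between 0.898% (HA replicate 3) and 1.57% (LP replicate 2) of the scaled counts of a library. Mbp alone made 46.9% to 51.7% of the CPM of all 32 members.

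The 5 newly formed genes summed to 738.7, 795.8 and 621.6 CPM in LP, 888.7, 873.2 and 791.4 in HP and 882.9, 786.1 and 661.1 in HA. The 6 precursor and lineage genes summed to 610.9, 690.1 and 643.0 CPM in LP, 711.1, 669.5 and 657.7 in HP and 678.0, 630.2 and 565.1 in HA. HA replicate 3 was lowest in the precursor sum, and LP replicate 3 in the newly formed sum. The ratio of the myelinating to the precursor sum ran from 15.9 in HA replicate 3 to 23.0 in HP replicate 2. The ratio of the highest to the lowest library had a median of 1.32 over the precursor genes, 1.55 over the newly formed genes and 1.76 over the myelinating genes. Over the 10723 tested genes with a mean of at least 10 CPM it was 1.21. The coefficient of variation within groups widened in the same order, with medians of 7.84%, 14.7% and 19.7%, against 6.08% over those 10723 genes.

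**Figure D2:**
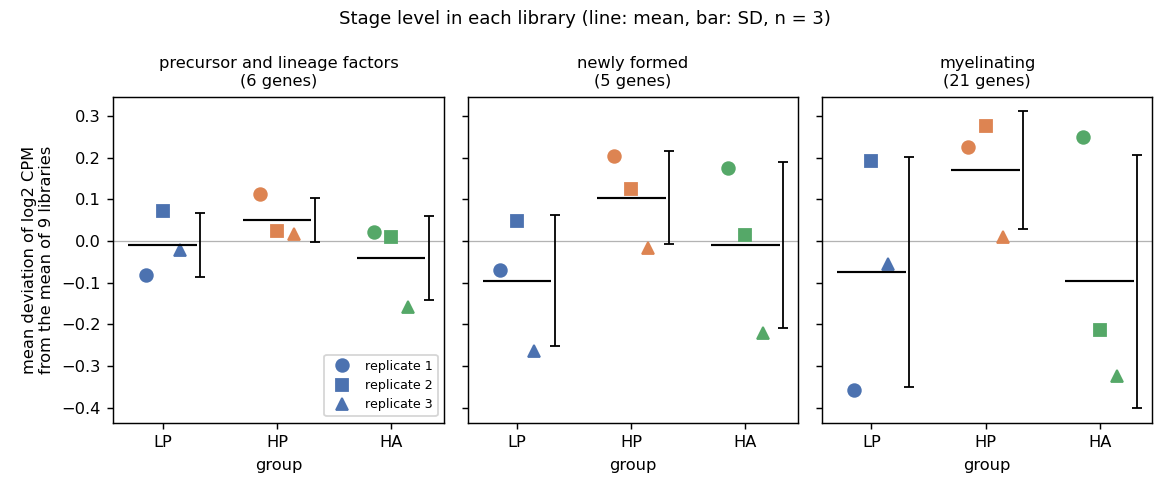
Mean deviation of log2 CPM from the mean of the 9 libraries, for the precursor and lineage genes, the newly formed genes and the myelinating genes, 1 symbol per library, with the group mean (line) and SD (bar, n = 3). In the myelinating genes LP runs from -0.36 to 0.19 and HA from -0.32 to 0.25, while HP lies between 0.01 and 0.28.

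As a mean deviation of log2 CPM, the myelinating genes stood at -0.07 ± 0.28 in LP, 0.17 ± 0.14 in HP and -0.10 ± 0.30 in HA (SD, n = 3). The newly formed genes stood at -0.10 ± 0.16, 0.10 ± 0.11 and -0.01 ± 0.20, and the precursor genes at -0.01 ± 0.08, 0.05 ± 0.05 and -0.04 ± 0.10. HA replicate 3 was the lowest of the 9 libraries for 20 of the 32 members, where it was lowest for 15.4% of all genes tested. HA replicate 1 was the highest for 10 of 32, against 9.45% of all genes. LP replicate 1 was lowest for 6 members, all of them myelinating genes. A member that left this pattern was Apod, which codes for the lipid carrier apolipoprotein D. Its levels were 55.3, 92.1 and 168.7 CPM in LP, 98.1, 104.5 and 104.4 in HP and 85.0, 74.6 and 199.3 in HA. Apod peaked in replicate 3 of LP and of HA, where the meningeal sums were high, and its highest library was 3.60 times its lowest, the widest ratio of the members.

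**Figure D3:**
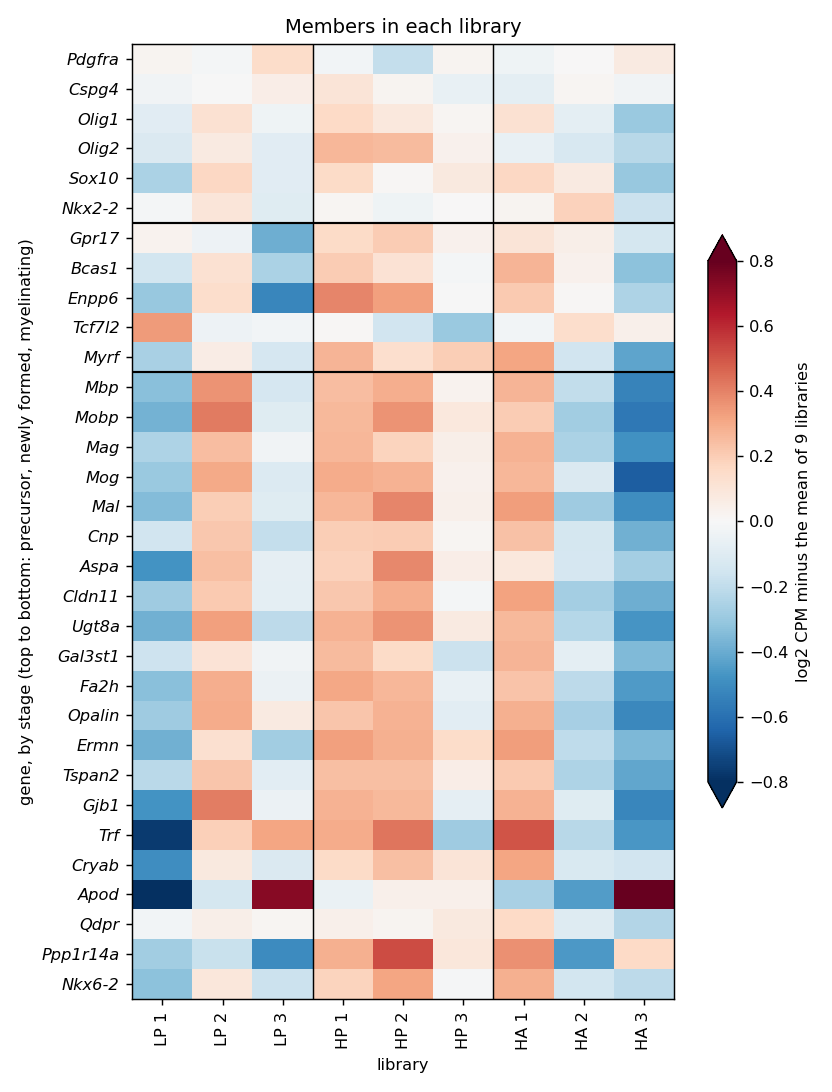
Log2 CPM of each member minus its mean over the 9 libraries, with genes as rows by stage and libraries as columns by group; the colour scale ends at -0.8 and 0.8. Most myelinating genes are red together in LP 2, HP 1, HP 2 and HA 1 and blue together in LP 1, HA 2 and HA 3, whereas Apod is red in LP 3 and HA 3.

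The markers of other cells that make or touch myelin were read beside these levels. The 8 Schwann cell markers that passed the filter summed to 218.6 CPM in LP replicate 3 and 212.8 in HA replicate 3. In the other 7 libraries the sum lay between 132.8 and 147.0 CPM, and none of the 8 was at 0. Several members, Mbp among them, are also genes of Schwann cells. Astrocyte markers (11 genes) summed to 4836 to 5529 CPM and microglial markers (11 genes) to 290.5 to 349.2, with no marker of either list at 0. The part of these cells in the values of the members was not tested, and the median of each stage is given below with and without the libraries concerned.

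HP against LP asks what the maternal diet leaves in the hypothalamus of vehicle-treated pups. No member was called at an adjusted p under 0.05 by the edgeR quasi-likelihood test (0 of 32), nor by DESeq2, and the smallest adjusted p of a member by edgeR was 0.737 (Ppp1r14a). Over all 17546 genes tested 2 were called (0.0114%). At an unadjusted p under 0.05, 5 of the 32 members were higher in HP and none was lower, where 3.12% of all genes were higher. They were Olig2, Gpr17, Enpp6, Ermn and Ppp1r14a. The log2 fold change was above 0 for 28 of 32 members, against 49.1% of all genes. Most myelinating members rise and fall together over the libraries, so counts of members here and below are not counts of independent genes. In 5 members (Gpr17, Myrf, Ermn, Cryab, Ppp1r14a) every HP library lay above every LP library, as it did in 5.93% of all genes. The median log2 fold change was 0.05 over the precursor genes, 0.25 over the newly formed genes and 0.20 over the myelinating genes, with a median of 0.00 over all genes tested. Leaving out LP replicate 2 gave a myelinating median of 0.41, and leaving out LP replicate 1 gave 0.10. With LP replicate 3, where Schwann cell and meningeal markers were high, left out, the myelinating median was 0.18, the newly formed median 0.14 and the precursor median 0.05. With 1 library left out at a time, the precursor median ran from 0.02 (LP replicate 1 or HP replicate 1 left out) to 0.10 (LP replicate 2 left out). Striatal markers were high in LP replicates 1 and 2, and leaving out both leaves 1 LP library. The precursor, newly formed and myelinating medians were then 0.11, 0.36 and 0.28.

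HA against HP asks what 4-PBA changes in pups of HFHS dams. These 2 comparisons share the HP libraries, so a high HP level enters both with opposite signs. No member was called by edgeR (0 of 32) or DESeq2, and 2 of all genes were (0.0114%). The smallest adjusted p of a member, over all genes tested, was 0.840 by edgeR and 0.119 by DESeq2. At an unadjusted p under 0.05 only Olig2 was lower among the 32 members, where 2.42% of all genes were. Olig2 was also the only member whose HA libraries all lay below the HP libraries, against 5.89% of all genes. The log2 fold change was below 0 for 28 of 32 members, against 49.1% of all genes. The medians were -0.07 over the precursor genes, -0.12 over the newly formed genes and -0.27 over the myelinating genes, and 0.00 over all genes tested. Single libraries moved all 3 medians by over 1.5 times. Without HA replicate 3, where Schwann cell and meningeal markers were high, the precursor, newly formed and myelinating medians were -0.01, -0.05 and -0.12. Without HA replicate 1 they were -0.11, -0.24 and -0.51.

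HP and HA both hold the title codes Hg43 and Hg13, so this comparison can be read within a code. Within Hg43, with 2 libraries a group, the mean deviation of the myelinating genes was 0.02 in HA and 0.25 in HP, a difference of -0.23. The 2 HA libraries differed, with 0.249 in replicate 1 and -0.214 in replicate 2. HP replicates 1 and 2 had 0.225 and 0.275, so HA replicate 1 lay within the HP range and the difference rests on HA replicate 2. Within Hg13, with 1 library a group and no replicate check, the mean deviation of the myelinating genes was -0.32 in HA and 0.01 in HP, a difference of -0.33. The newly formed genes differed by -0.07 and -0.20 and the precursor genes by -0.05 and -0.17. With the code as a term in an edgeR fit of these 6 libraries, the myelinating median was -0.28. In that fit 14 of the 32 members were lower at an unadjusted p under 0.05, against 2.93% of all genes. Most myelinating members rise and fall together over the libraries, so these are not 14 independent results. The fit also leaves out the LP libraries, so it differs from the main fit in more than the code term. No member reached the adjusted threshold in it either, and the smallest adjusted p was 0.254, for Olig2.

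HA against LP sets the 4-PBA pups of HFHS dams against the vehicle pups of LFD dams, so that diet and drug differ together. It shares the HA libraries with the comparison above and the LP libraries with the first. No member was called by edgeR or DESeq2 (0 of 32), and none had an unadjusted p under 0.05 by edgeR. Over all genes 0 were called (0%) by edgeR and 27 by DESeq2, and 6.51% had an unadjusted edgeR p under 0.05. The log2 fold change was below 0 for 20 of 32 members and above 0 for 12, against 48.1% below 0 over all genes. No member had groups that did not overlap, against 5.4% of all genes with HA above and 5.51% with HA below. The medians were -0.04, 0.10 and -0.04 for precursor, newly formed and myelinating genes, with 0.01 over all genes tested. The signs of the myelinating and the newly formed median rested on single libraries. The myelinating median was -0.30 without HA replicate 1, 0.10 without LP replicate 2 and 0.09 without HA replicate 3. Without LP replicate 3 and HA replicate 3 together it was 0.06. Without LP replicates 1 and 2, where striatal markers were high, it was -0.015, with 1 LP library left. The newly formed median was -0.02 without HA replicate 1, 0.03 without LP replicate 3 and 0.21 without HA replicate 3, while the precursor median stayed between -0.06 and 0.00.

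**Figure D4:**
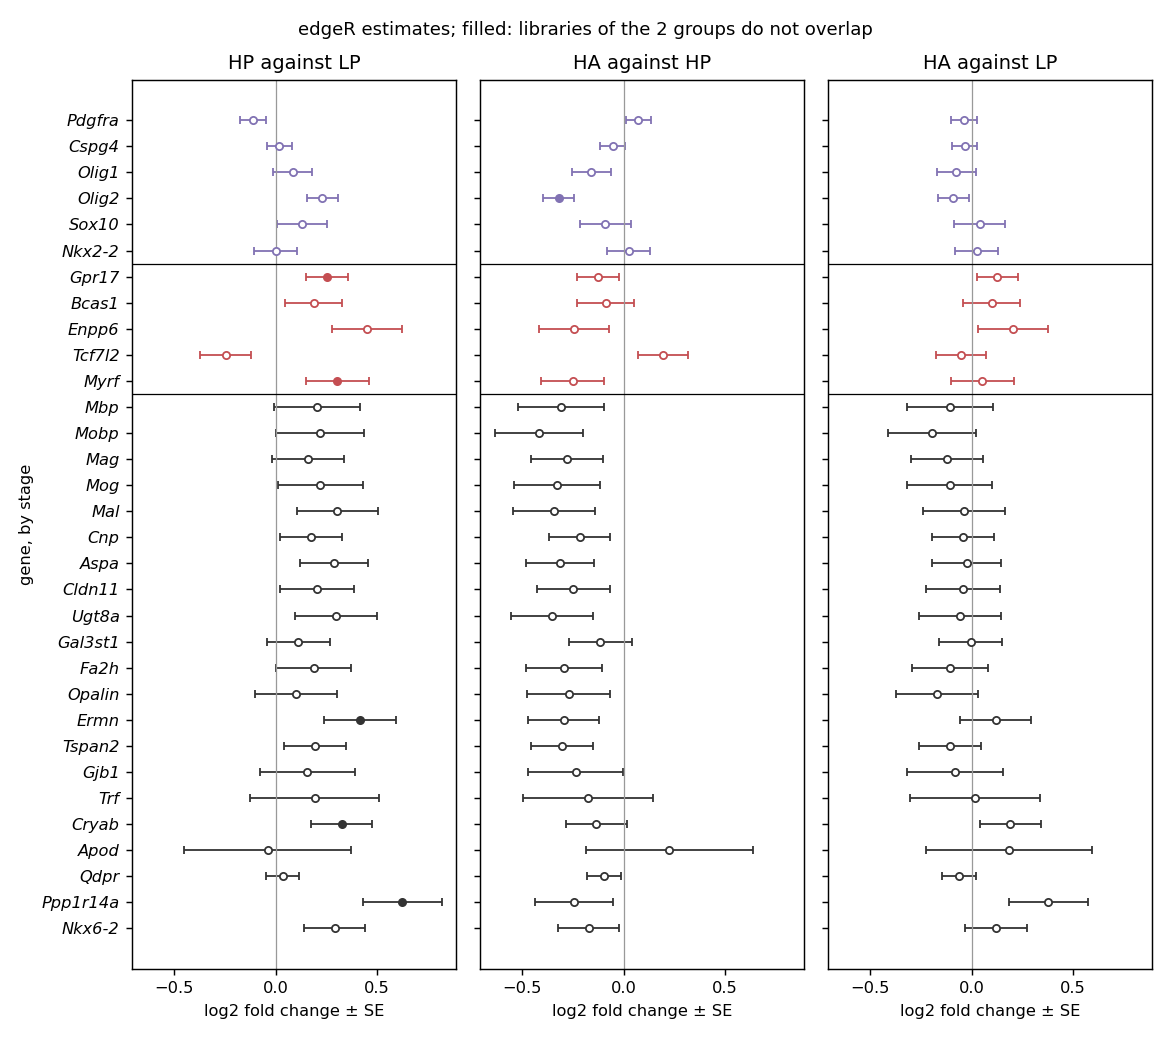
Log2 fold change of each member in the 3 comparisons, with its SE as bars (edgeR, 3 libraries a group); rows and colours follow the stages, and filled points mark members whose groups do not overlap. Estimates lie mostly above 0 for HP against LP (28 of 32) and mostly below 0 for HA against HP (28 of 32), with 5 and 1 filled points.

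Among the precursor surface genes, Pdgfra, the receptor through which PDGF keeps precursors dividing, varied little. Its values were 117.8, 114.8 and 128.6 CPM in LP, 114.4, 102.0 and 118.0 in HP and 113.7, 116.3 and 121.9 in HA. The lowest library was HP replicate 2, and all groups overlapped. On the log2 scale the estimate was -0.11 ± 0.06 (SE) for HP against LP, with an edgeR adjusted p of 0.853, and it lay between -0.15 and -0.05 with 1 library at a time left out. Cspg4 ran from 31.0 to 35.2 CPM over the 9 libraries, the narrowest ratio of the members (1.13), with log2 fold changes of 0.02 and -0.05 for HP against LP and HA against HP.

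Olig2, which commits progenitors to the lineage and is kept on in oligodendrocytes, had the smallest unadjusted p of the lineage factors in both comparisons that hold HP. Its values were 73.4, 83.7 and 74.7 CPM in LP, 95.6, 94.8 and 81.7 in HP and 76.5, 72.8 and 68.4 in HA. HP replicates 1 and 2 were the highest of the 9 libraries and HA replicate 3 the lowest. LP replicate 2 lay above HP replicate 3, so those groups overlapped, while every HA library lay below every HP library. Its estimated log2 fold change was 0.23 ± 0.08 for HP against LP (edgeR adjusted p = 0.758). It was -0.32 ± 0.08 for HA against HP (edgeR adjusted p = 0.840). For HA against LP it was -0.09 ± 0.08, with an edgeR adjusted p of 0.852. Leaving out 1 library at a time gave -0.39 to -0.28 for HA against HP, and 0.19 to 0.30 for HP against LP.

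The other lineage factors moved less. Olig1 was 313.9, 364.3 and 326.0 CPM in LP, 372.7, 354.1 and 337.5 in HP and 363.0, 317.3 and 272.6 in HA. HA replicate 3 was lowest and the groups overlapped. The log2 fold change was -0.16 ± 0.09 for HA against HP, with an edgeR adjusted p of 0.840. It became -0.27 without HA replicate 1 and -0.06 without HA replicate 3. Sox10, which works with Myrf on myelin genes, ran from 57.0 CPM (HA replicate 3) to 79.1 (LP replicate 2), with estimates of 0.13 and -0.09 in the comparisons of HP with LP and HA with HP. Nkx2-2, a homeodomain factor that times differentiation, ran from 13.1 to 16.7 CPM, with estimates of 0.00 and 0.02.

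Among the newly formed genes, Gpr17 is a receptor that marks the step before myelination and holds cells there when active. Its values were 387.5, 369.9 and 290.1 CPM in LP, 421.9, 436.2 and 389.4 in HP and 408.6, 391.4 and 344.0 in HA. Every HP library lay above every LP library, the nearest being HP replicate 3 and LP replicate 1. LP replicate 3 was the lowest of all. On the log2 scale the estimate was 0.25 ± 0.10 for HP against LP (edgeR adjusted p = 0.807). It was 0.14 when LP replicate 3 was left out and 0.33 when LP replicate 1 was. Exons of Gpr17 share 188 bases with Lims2 on the opposite strand, which had 555.9 counts on average against 7473 for Gpr17, and the library kit is not described as keeping strand.

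Enpp6, a choline phosphodiesterase switched on in cells that have just left the precursor stage, had 47.6, 64.8 and 40.9 CPM in LP. It had 77.1, 73.8 and 58.6 CPM in HP and 68.1, 59.1 and 49.6 in HA. HP replicates 1 and 2 were highest and LP replicate 3 lowest, and LP replicate 2 lay above HP replicate 3. Its estimated log2 fold change was 0.45 ± 0.17 for HP against LP (edgeR adjusted p = 0.807). It became 0.66 when LP replicate 2 was left out and 0.31 when LP replicate 3 was. For HA against LP it was 0.20 ± 0.17 (edgeR adjusted p = 0.854), from 0.07 without LP replicate 3 to 0.41 without LP replicate 2.

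Bcas1, an early myelin-associated protein, ran from 189.3 CPM (HA replicate 3) to 287.0 (HA replicate 1), so that the extremes of all 9 libraries lay in 1 group. Myrf, the factor that switches on myelin genes, had 70.1, 87.4 and 76.4 CPM in LP, 101.1, 91.9 and 96.1 in HP and 104.3, 75.5 and 62.6 in HA. All HP libraries lay above all LP libraries, while HA held the highest and the lowest library. Its log2 fold change was 0.31 ± 0.15 for HP against LP (edgeR adjusted p = 0.832) and -0.25 ± 0.15 for HA against HP (edgeR adjusted p = 0.840). The latter was -0.48 without HA replicate 1 and -0.09 without HA replicate 3. Tcf7l2 had the opposite signs, with 19.1, 14.7 and 14.9 CPM in LP, 15.2, 13.6 and 12.3 in HP and 14.9, 16.6 and 15.5 in HA. On the log2 scale the estimate was -0.25 ± 0.12 for HP against LP and 0.20 ± 0.12 for HA against HP, with edgeR adjusted p of 0.832 and 0.840. The latter ran from 0.12 to 0.27 with 1 library at a time left out. Tcf7l2 is also expressed by neurons, chiefly of the thalamus, and the thalamic list (11 genes) summed to 159.0 to 190.0 CPM with no marker at 0.

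The proteins of compact myelin and its membranes (Mbp, Mobp, Mal, Cldn11, Opalin, Tspan2) all had estimates above 0 for HP against LP and below 0 for HA against HP. Mbp was 5494, 8893 and 6315 CPM in LP, 8244, 8489 and 7082 in HP and 8383, 6042 and 4786 in HA. LP replicate 2 was the highest and HA replicate 3 the lowest of the 9. The log2 fold change of Mbp was 0.20 ± 0.21 for HP against LP and -0.31 ± 0.21 for HA against HP, with edgeR adjusted p of 0.917 and 0.840. Mobp had 1354, 2354 and 1651 CPM in LP, 2114, 2260 and 1866 in HP and 2030, 1457 and 1186 in HA. It had the lowest estimate of the members for HA against HP, -0.42 ± 0.22 (edgeR adjusted p = 0.840). HA replicate 1 lay inside the HP range and the other two HA libraries lay below it. This estimate was -0.66 without HA replicate 1 and -0.25 without HA replicate 3. Mobp, with 6 SOX cores in its stretch, stands at chr9:120149707-120181484.

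Tspan2, a tetraspanin of early myelin membranes, was 290.3, 392.9 and 317.5 CPM in LP, 398.6, 398.3 and 349.9 in HP and 390.0, 284.5 and 253.4 in HA. Its log2 fold change for HA against HP was -0.31 ± 0.15 (edgeR adjusted p = 0.840), from -0.51 without HA replicate 1 to -0.18 without HA replicate 3. Opalin, a glycoprotein of the paranodal loops, ran from 19.7 CPM (HA replicate 3) to 34.7 (LP replicate 2). Its estimate for HA against LP was -0.17 ± 0.20 (edgeR adjusted p = 0.892), and it ran from -0.44 without HA replicate 1 to -0.01 without HA replicate 3. Mal had estimates of 0.31 and -0.34 for HP against LP and HA against HP, and Cldn11 of 0.21 and -0.25, with SE of 0.20 and 0.18.

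The proteins of the inner and outer loops and of the cell process (Mag, Mog, Cnp, Ermn, Gjb1) followed the same libraries. Ermn, an actin-binding protein of myelinating cells, was 62.8, 89.7 and 67.5 CPM in LP, 103.0, 99.9 and 90.8 in HP and 103.6, 71.2 and 64.0 in HA. All HP libraries lay above all LP libraries, with LP replicate 2 just below HP replicate 3, and HA spanned both. Its estimated log2 fold change was 0.42 ± 0.18 for HP against LP (edgeR adjusted p = 0.810). It was 0.59 when LP replicate 2 was left out and 0.32 when LP replicate 1 was. Mag, the adaxonal adhesion molecule, and Mog, the outermost glycoprotein, had estimates of 0.16 and 0.22 for HP against LP and of -0.28 and -0.33 for HA against HP. Cnp had 0.17 and -0.22, and Gjb1, a connexin that couples the layers, 0.16 and -0.24. The SE of these 4 genes lay between 0.15 and 0.24 in both comparisons. Cnp shares 154 exon bases with Dnajc7 on the opposite strand, with 2754 counts on average against 21000.

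Of the enzymes that make or feed myelin lipids, Ugt8a makes galactosylceramide, Gal3st1 sulfates it, Fa2h hydroxylates its fatty acid and Aspa splits N-acetylaspartate into acetate. Ugt8a was 233.7, 381.5 and 263.0 CPM in LP, 368.6, 390.9 and 320.0 in HP and 363.9, 259.9 and 219.7 in HA. The spread inside LP and inside HA was wider than that of HP, and HA replicate 1 lay within the HP range. Its log2 fold change was 0.30 ± 0.20 for HP against LP and -0.36 ± 0.20 for HA against HP (edgeR adjusted p = 0.886 and 0.840). The latter was -0.59 without HA replicate 1 and -0.20 without HA replicate 3. Aspa was 14.9, 24.5 and 19.7 CPM in LP, 23.6, 27.1 and 21.5 in HP and 22.01, 18.9 and 17.2 in HA. Its log2 fold change for HA against HP was -0.31 ± 0.17 (edgeR adjusted p = 0.840), between -0.42 and -0.22 with 1 library at a time left out. Fa2h had estimates of 0.19 and -0.29 and Gal3st1 of 0.11 and -0.12 for the same comparisons.

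Ppp1r14a, an inhibitor subunit of protein phosphatase that is also made by smooth muscle, had the largest estimate of the members for HP against LP. Its values were 12.9, 13.8 and 11.02 CPM in LP, 19.04, 22.4 and 16.6 in HP and 20.2, 11.4 and 17.4 in HA. Each HP library lay above each LP library, and HA spread over both. On the log2 scale the estimate was 0.62 ± 0.20 for HP against LP (edgeR adjusted p = 0.737), or 1.54-fold. It was 0.38 ± 0.20 for HA against LP (edgeR adjusted p = 0.797). The first ran from 0.50 to 0.73 with 1 library at a time left out, and the second from 0.19 without HA replicate 1 to 0.58 without HA replicate 2. The pericyte and smooth muscle list (10 genes) summed to 212.4 to 331.4 CPM in LP, 260.8 to 277.5 in HP and 256.3 to 608.1 in HA, with Tagln at 0 in at least 1 library, and its part in these values was not tested.

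Cryab, a small heat shock protein of oligodendrocytes and astrocytes, was 48.3, 71.9 and 62.8 CPM in LP, 75.8, 80.4 and 73.1 in HP and 84.7, 62.5 and 61.3 in HA. Every HP library lay above every LP library, and HA replicate 1 was highest. Its estimated log2 fold change was 0.33 ± 0.15 for HP against LP (edgeR adjusted p = 0.816) and 0.19 ± 0.15 for HA against LP (edgeR adjusted p = 0.847). For HP against LP it was 0.18 when LP replicate 1 was left out and 0.46 when LP replicate 2 was. For HA against LP it was 0.02 without HA replicate 1 and 0.32 without LP replicate 2. Nkx6-2, a homeodomain factor of myelinating cells, was 17.9, 24.0 and 20 CPM in LP, 25.4, 28.0 and 22.3 in HP and 27.4, 20.3 and 19.4 in HA. Its log2 fold change was 0.29 ± 0.15 for HP against LP (edgeR adjusted p = 0.832), between 0.20 and 0.41 with 1 library at a time left out. This gene is uncertain, because 246 of its exon bases lie in Inpp5a on the opposite strand, which had 1490 counts on average against 445.6 for Nkx6-2.

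Qdpr, which regenerates tetrahydrobiopterin, was the most level of the myelinating genes, from 81.3 to 107.0 CPM, with estimates of 0.03 and -0.10. Trf, the iron carrier transferrin, was the thinnest, from 5.31 CPM (LP replicate 1) to 12.8 (HA replicate 1), with 109 to 278 counts per library. Exons of Trf share 2108 bases with Gm20425 on the same strand, which had 0 counts on average against 184.2 for Trf. How reads in the shared bases were counted was not tested, so the low level of Trf is uncertain. The estimates of Trf were 0.19 and -0.18 with an SE of 0.32 in both. Those of Apod were -0.04 and 0.22 with an SE of 0.41, the widest of the members, and its HA mean of 119.6 ± 69.1 CPM (SD, n = 3) rests on HA replicate 3.

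Further lists hold other genes of the lineage and its signals, and none of their genes was called by edgeR in any of the 3 comparisons. Of 35 other myelinating genes, 32 had estimates above 0 for HP against LP (median 0.17) and 32 below 0 for HA against HP (median -0.15). Their median for HA against LP was 0.04, with 23 above 0. Of 15 other newly formed genes, 14 were above 0 for HP against LP (median 0.09) and 14 below 0 for HA against HP (median -0.08). Of 18 other precursor genes, 11 were above 0 for HP against LP (median 0.04) and 10 below 0 for HA against HP (median -0.02). Of 24 receptors of the lineage, 12 were above 0 for HP against LP and 15 for HA against HP, and of 14 inhibitors of differentiation 7 were in each case. Of 20 ligands 18 passed the filter, with 7 above 0 for HP against LP and 14 for HA against HP. Of 17 neuronal partners at nodes and paranodes, 7 were above 0 for HP against LP and 1 for HA against HP (median -0.05). The general neuron list went the same way for HA against HP, with all 10 genes below 0 (median -0.04). HA replicate 3 was the lowest library for 10 of the 17 partners and for 8 of the 10 neuron genes.

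Zfp488, a co-factor of Olig2, had the smallest p of the other newly formed genes for HP against LP, with 14.8, 19.3 and 17.0 CPM on average in LP, HP and HA. On the log2 scale the estimate was 0.38 ± 0.10 (edgeR adjusted p = 0.633), and every HP library lay above every LP library. Anln, an actin-bundling protein of myelin, averaged 28.4, 39.9 and 29.9 CPM, with 0.49 ± 0.17 for HP against LP and -0.42 ± 0.17 for HA against HP (edgeR adjusted p = 0.782 and 0.840). Chrm1, a muscarinic receptor whose block favours differentiation, averaged 17.9, 12.4 and 16.0 CPM. It had -0.53 ± 0.11 for HP against LP and 0.37 ± 0.11 for HA against HP, the reverse of the myelin genes, with edgeR adjusted p of 0.464 and 0.840. It is mainly a neuronal gene. Its highest libraries were LP replicates 1 and 2 (2.755 and 3.066 FPKM), where striatal markers were high. LP replicate 3 had 2.407 FPKM, and the HP libraries 2.001, 2.001 and 1.71. The part of striatal cells in these values was not tested.

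For HA against HP the smallest p of the other lists belonged to Evi2a among the myelinating genes (-0.44 ± 0.14, edgeR adjusted p = 0.840) and Sox8, a relative of Sox10, among the precursor genes (-0.22 ± 0.09, edgeR adjusted p = 0.840). Lifr, the receptor of leukaemia inhibitory factor, had the smallest p among the receptors in both comparisons that hold HA. It had 52.2, 54.5 and 53.4 CPM in LP, 51.6, 51.2 and 46.5 in HP and 40.3, 43.6 and 42.8 in HA, so that HA lay below every other library. Its estimated log2 fold change was -0.24 ± 0.06 for HA against HP (edgeR adjusted p = 0.840). It was -0.34 ± 0.06 for HA against LP (edgeR adjusted p = 0.404), the smallest adjusted p in any of these lists. Klf4, an inhibitor of the cell cycle and of differentiation that blood vessels also make, averaged 5.44, 7.05 and 9.62 CPM in LP, HP and HA. Its estimate was 0.82 ± 0.25 for HA against LP (edgeR adjusted p = 0.663). In deposited FPKM it had 1.704, 1.36 and 2.271 in LP, 2.165, 2.46 and 2.288 in HP and 2.32, 2.697 and 4.411 in HA. HA replicate 3, its highest library, also had the highest pericyte and smooth muscle sum (608.1 CPM), whose part here was not tested.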

How the data were processed

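RNA from the hypothalamus of 9 mouse pups was sequenced after library preparation from 3 µg of RNA, per the labels' protocols. The authors deposited whole-number read counts per gene, not normalized. The authors also deposited FPKM values, which are counts divided by gene length and library size: over 122820 values with at least 50 counts, deposited over recomputed FPKM was 0.981 to 1.01. Per the submitters' processing notes the build was mm9 and the tools were featureCounts 1.5.0-p3, DESeq2 1.16.1 and HISAT2 2.0.5. The coordinates in the table, however, equal those of GENCODE M21 (GRCm38) for 53499 of 54409 shared identifiers (98.3%) and for 30 of the 32 members, and were read as GRCm38.

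Counts of all 9 libraries were fitted with edgeR 4.0.16 (R 4.3.3), with TMM scaling, filterByExpr (17546 genes kept), group as the only term and the two-sided quasi-likelihood F test. Adjustment was by Benjamini-Hochberg across these genes (threshold 0.05). CPM use TMM-scaled library sizes. Fold changes are edgeR estimates, and the SE is the size of the estimate over the square root of F. Deviations of log2 CPM used a prior count of 2. The scripts were tested on simulated data. All 32 members are described. The rule gave library values, per comparison, to the members of smallest p in each stage (at most 2, 2 and 4), and named at most 2 genes of each further list. Library values of Mbp and Apod were added after their values were seen. Library values of some genes of the further lists, such as Lifr and Klf4, are also given outside this rule. Members and lists were chosen with earlier results of these data known. The motifs were searched in RefSeq sequence of GRCm38.p6. Alternatives were other scalings, no filter, DESeq2 1.42.0, a replicate block, the title code as a term, fits of 6 libraries, and fits without single libraries or pairs.

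LP, HP and HA carry the same replicate numbers, with no label that says what they share. Deviations of same-numbered libraries from their group means correlated by 0.256, 0.144 and 0.486 between LP and HA. Of different-numbered libraries, LP 1 and HA 2 correlated by 0.251 and LP 2 and HA 1 by 0.182. Those that set replicate 3 of one group against replicate 1 or 2 of the other gave -0.367 to -0.236. LP 3 and HA 3 also shared high meningeal markers, so the numbers do not establish pairs there, and the main fit does not pair. Between LP and HP the correlations of same-numbered libraries were 0.137, -0.028 and 0.159 and between HP and HA 0.082, 0.004 and 0.118. The numbers were not read as pairs there either.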

Additional observations from a re-analysis of the deposited data

How the results depend on the processing

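No member was called in any of the 3 comparisons under any of the 17 or 18 alternatives, DESeq2 included. The lowest of the smallest adjusted p of a member was 0.13 for HP against LP (no filter), 0.119 for HA against HP (DESeq2) and 0.639 for HA against LP (without LP replicate 3). Each member had at least 109 counts in each library, while the myelinating genes varied within groups by a median of 19.7%. With the replicate block, the medians of precursor, newly formed and myelinating genes were 0.05, 0.26 and 0.20 for HP against LP, -0.08, -0.13 and -0.28 for HA against HP and -0.04, 0.09 and -0.06 for HA against LP. The block changed no call of a member.

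The count of all genes called moved more, and the cause was not tested. For HP against LP (2 genes) it was 1 with library totals, 53 with no filter, 32 with DESeq2, 4 with the replicate block, 37 with replicate 3 of LP and of HA left out, 4 in a fit of the 6 libraries and 1 to 21 without 1 library. For HA against HP (2 genes) it was 5 with no filter, 8 with DESeq2, 10 with that pair left out and 1 to 9 without 1 library. For HA against LP (0 genes) it was 41, 27, 23 and 0 to 14 in the same order, and 1 in a fit of the 6 libraries.

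For HA against LP the myelinating median ran from -0.30 to 0.10 without 1 library, and the newly formed median was 0.27 without LP replicates 1 and 2. The sign turned for Mobp without LP replicate 2 (range over single libraries left out -0.437 to 0.05) and for Olig1 without HA replicate 3 (-0.185 to 0.025). With both replicate 3 libraries of LP and HA left out it turned for Olig1 (0.009) and Opalin (0.007).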
